A study of Rattus norvegicus with 2 samples.

Results

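The 46 genes described here encode heat shock proteins and chaperones, chosen by name, and 43 of them had a probe on the array matched by RefSeq accession, out of 39500 genes and unnamed transcripts on it. No probe was matched to Hspa1b, Dnajb1 or Dnajc6; probes whose accession the gene table lacks were left unnamed, and some of them may be for these genes. The RNA came from the hypothalamus of male and female SHR (spontaneously hypertensive rats, an inbred strain in which blood pressure climbs with age) aged 9 weeks. For each sex, 100 ng of RNA from each of 5 rats was combined into 1 pool, and each pool was hybridised to 1 single-colour (Cy3) Agilent array. Both groups were of the same strain, age and tissue and neither was treated; per the labels all rats were killed under ether and decapitated. A pool hides the spread between its rats, and with 1 pool per sex there is no replicate check, no test and no p-value: every difference below compares these 2 pools.

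Chaperones are proteins that bind unfolded or partly folded proteins and help them reach or regain their shape. In the cytosol the Hsp70 proteins do this in cycles driven by J-domain cochaperones (the Dnaj genes) and nucleotide exchange factors (Bag and Hsp110 proteins), and hand clients on to Hsp90. Heat, oxidants or misfolded proteins release the transcription factor Hsf1, which binds heat shock elements and switches on the inducible genes, while unfolded protein in the endoplasmic reticulum acts through its own sensors on a separate set of chaperone genes. In brain, inducible Hsp70 and the small heat shock protein Hsp27 are low in most resting neurons and can be induced in glia, vessels and injured neurons. The members were divided into 13 heat-inducible genes, 18 mostly constitutive genes of the cytosol with the heat shock factors, 4 mitochondrial genes and 11 genes of the endoplasmic reticulum.

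The elements that these regulators bind are shown first because the inducible and reticulum groups are known for answering to them. Promoter windows of 300 bases, from 250 before to 50 after the annotated start, were taken from RefSeq on build GRCr8, and 38 of the 46 members had one. The 3-unit heat shock element was searched as GAANNTTCNNGAA or TTCNNGAANNTTC, which are reverse complements, so both strands were covered and overlapping matches were joined. It was present in 5 members with a window, and in 0.798% of all 33469 windows. Positions are counted from the annotated start, with the matched element in capitals.
Hspa8, chr8:50080447-50080483, plus strand, element at -55 to -43: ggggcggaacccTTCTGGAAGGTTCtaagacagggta
Hspa8, chr8:50080289-50080325, plus strand, element at -213 to -201: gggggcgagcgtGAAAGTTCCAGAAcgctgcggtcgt
Hsph1, chr12:10427320-10427356, plus strand, element at -36 to -24: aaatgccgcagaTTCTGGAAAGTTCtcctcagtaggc
Hspe1, chr9:64084250-64084291, plus strand, elements at -65 to -48: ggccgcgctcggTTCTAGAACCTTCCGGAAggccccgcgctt
Dnaja1, chr5:60638405-60638433, plus strand, element at 10 to 22: gccgggcgGAACTTTCCAGAAcgctcggt

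The element of Hspe1 is also that of Hspd1, which is transcribed the other way from the same stretch of chromosome 9, at -242 to -225 on its own strand. The shorter 2-unit element, GAANNTTC or TTCNNGAA, is part of every 3-unit match and was present in 8 of the 10 heat-inducible members with a window, in 5 of 14 constitutive, 3 of 4 mitochondrial and 0 of 10 reticulum members, against 15.9% of all windows. Hspb1, the gene of Hsp27, had 2 such matches, in capitals in the 250 bases before its start (chr12:26432302-26432551, minus strand).
Hspb1: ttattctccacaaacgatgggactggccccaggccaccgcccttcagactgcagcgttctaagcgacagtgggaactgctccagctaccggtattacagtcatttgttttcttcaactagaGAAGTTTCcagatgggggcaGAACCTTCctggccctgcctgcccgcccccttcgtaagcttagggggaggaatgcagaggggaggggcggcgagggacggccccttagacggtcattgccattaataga

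The window at the annotated start of Hspa1a held no match to either form; that start may lie upstream of the promoter in common use, and other starts were not examined. The endoplasmic reticulum stress element, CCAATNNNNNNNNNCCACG on either strand, which binds regulators of the unfolded protein response, was present in 5 of the 10 reticulum members with a window and in no other member, against 0.0657% of all windows. Hsp90b1 held it at 2 places, of which the one nearer the start lies on the opposite strand. No member's window held both this element and a heat shock element.
Hspa5, chr3:38452961-38453003, plus strand, element at -43 to -25: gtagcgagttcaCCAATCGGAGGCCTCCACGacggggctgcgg
Hsp90b1, chr7:23012335-23012377, minus strand, element at -72 to -54: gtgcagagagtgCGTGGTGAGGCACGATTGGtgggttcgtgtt
Dnajc3, chr15:102432522-102432564, plus strand, element at -133 to -115: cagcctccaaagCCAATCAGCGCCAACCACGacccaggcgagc
Canx, chr10:35158057-35158099, minus strand, element at -230 to -212: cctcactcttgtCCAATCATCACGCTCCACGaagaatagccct
Calr, chr19:40213123-40213165, plus strand, element at -232 to -214: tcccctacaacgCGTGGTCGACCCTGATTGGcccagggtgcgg

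**Figure D1:**
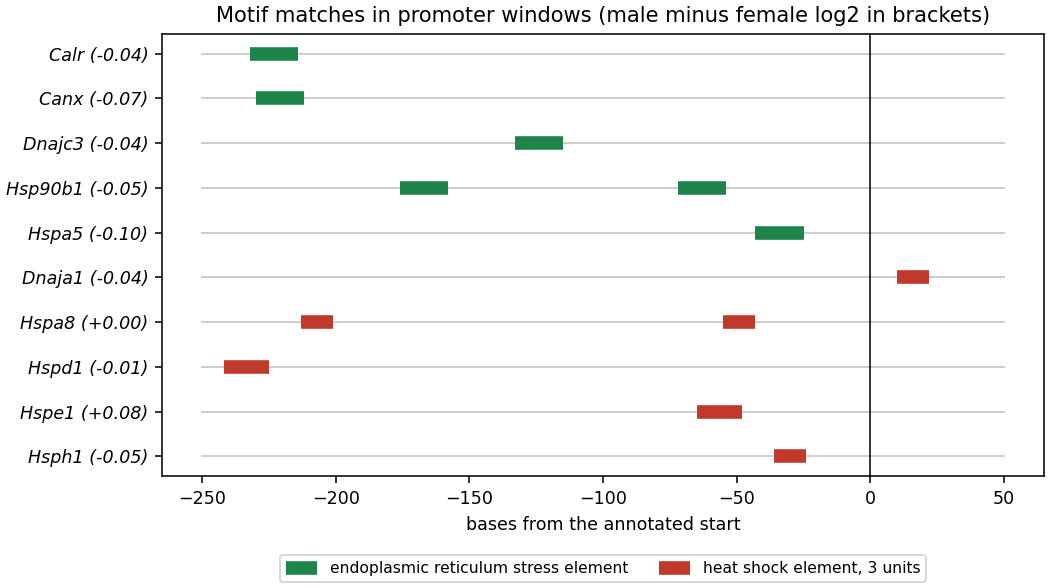
Positions of the 3-unit heat shock element (red) and the endoplasmic reticulum stress element (green) in bases from the annotated start, for the 10 members with a match. The number after each name is its male minus female log2 difference; none of the 10 lies beyond -0.10 or 0.08.

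On each array, 58717 spots were for rat transcripts, of which 71.6% were well above background for the male pool and 73.0% for the female pool. Signals are given as a percentage of the array's 75th percentile, which was 2203 units for the male pool and 2254 units for the female pool over a median local background of 33 units. Levels are not compared between genes, because probes differ in how strongly they bind. Differences are male minus female on the log2 scale. The technical SD beside them was estimated from probes printed on several spots of the same array and covers printing and scanning only, and the number of arrays limits precision beyond it. All 9 hypothalamic marker genes, such as Avp, Oxt, Pomc and Hcrt, were well above background on both arrays. Across 24134 genes and transcripts well above background on both, the median difference was -0.016, and 90% lay between -0.28 and 0.34. Of all 24134, 55.0% were lower in the male pool at any size, the share beside which counts of direction below stand. This share was computed with the 75th percentile scaling only. Counts given below for other settings have no such share beside them.

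Only 2 of the 42 chaperone genes measured on both arrays stood apart between the pools, and both are heat-inducible: Hspa1a, the stress-induced Hsp70, was 3.97-fold higher in the male pool, and Hspb1, the small heat shock protein Hsp27, was 1.85-fold higher there. The other 40 members well above background on both arrays differed by at most 1.17-fold, from -0.22 to 0.08. At a threshold of 25% (a log2 difference of 0.32), 2 of 42 members (4.76%) were higher in the male pool, which is close to the 5.40% of all genes and transcripts past it. At the same distance in the other direction, 0 members were lower, against 3.81% of all. Large differences are much rarer among bright probes. Of 9860 genes and transcripts with a mean log2 signal above -2 relative to the 75th percentile, a limit set after the values were seen, 0.822% passed this threshold towards the male pool and 0.375% towards the female pool. Of the 36 members in that range, 2 (5.56%) passed it towards the male pool and 0 towards the female pool.

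**Figure D2:**
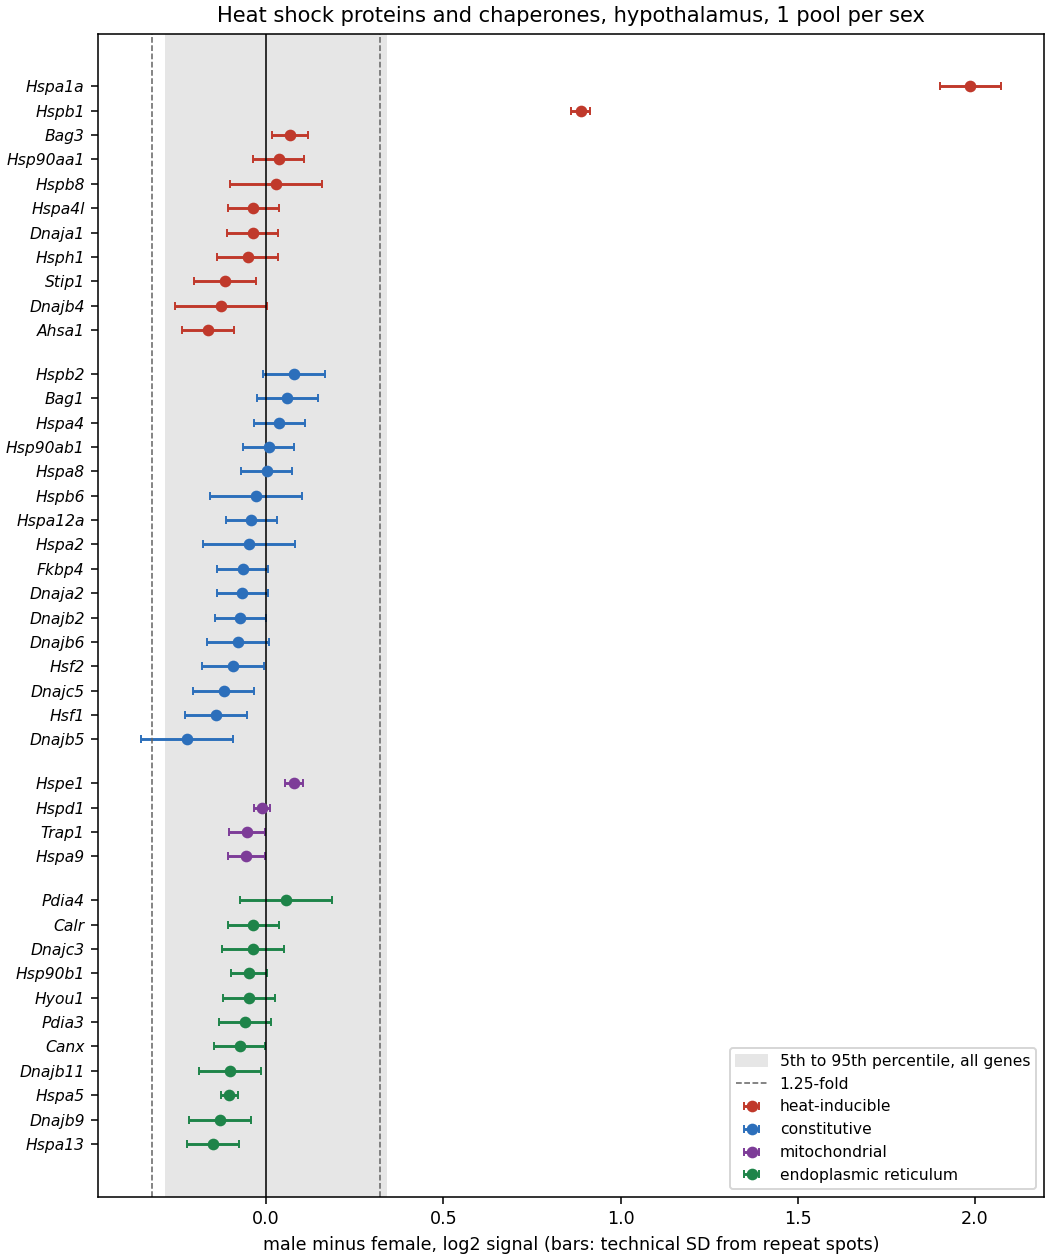
Male minus female log2 signal of the 42 members well above background on both arrays, by group, with bars of 1 technical SD; the grey band is the 5th to 95th percentile of all genes (-0.28 to 0.34) and dashed lines mark a difference of 25%. Hspa1a (1.99) and Hspb1 (0.89) lie far to the right, and the other members lie inside the dashed lines.

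Hspa1a was measured by 2 probes, each on 1 spot. On the brighter probe its signal was 179% of the 75th percentile for males and 45.0% for females, a log2 difference of 1.99 with a technical SD of 0.087. On the second probe it was 29.3% and 5.94%, a difference of 2.30 with a technical SD of 0.13. Both probes were thus higher in the male pool, by 22.9 and 17.7 times their technical SD, and neither spot lay in a patch of the slide where neighbouring spots also differed. The probes carry the accession of Hspa1a, but Hspa1b is a near-identical copy of it. Whether these probes also bind the Hspa1b transcript was not checked, so the signal is not assigned to 1 of the copies.

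Hspb1 was measured by 1 probe on 10 spots spread over the slide. In the male pool the spots ranged from 59.4% to 67.0% of the 75th percentile, with a median of 62.6%. In the female pool they ranged from 31.3% to 36.3%, with a median of 34.0%. The lowest male spot was above the highest female spot. The difference was 0.89, from 0.82 to 0.97 over the single spots (SD 0.049 over 10 spots of the same 2 pools), and 0.89 without the 2 spots that lay in patches.

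**Figure D3:**
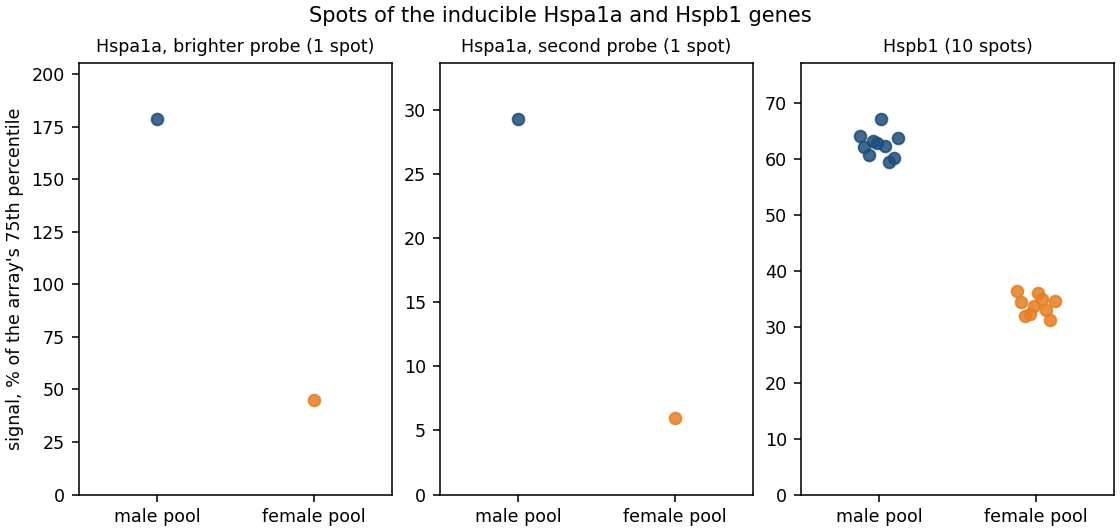
Signal of each spot of Hspa1a and Hspb1 as a percentage of the array's 75th percentile, for the male and female pool, on linear axes from 0. Each panel is 1 probe; the 10 Hspb1 spots of the male pool (59.4% to 67.0%) lie above all 10 of the female pool (31.3% to 36.3%).

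Hspa1l, a member of the constitutive group and a testis-rich Hsp70 encoded beside Hspa1a, reached the level called well above background for females alone, at 0.86% of the 75th percentile against 0.17%. The difference is therefore a bound, set by the dimmest probe accepted as measured on the male array (0.686% of the 75th percentile, from mean log2 signals): it was -0.32 or lower, with a technical SD of 0.25.

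The other heat-inducible members that were measured did not share the difference of Hspa1a and Hspb1. Hspa1b and Dnajb1 of this group had no matched probe and are not covered. Of the 11 measured in this group 5 were higher for males and 6 for females. Their median was -0.036, and 0.030 after normexp background correction. Over all genes and transcripts these medians were -0.016 and 0.008. Bag3, the stress-induced cochaperone that links Hsp70 to small heat shock proteins, was at 151% and 144% in the male and female pools (0.068, technical SD 0.051). Hsp90aa1, the inducible cytosolic Hsp90, was at 4219% and 4116% (0.036), and its second probe was at -0.045. Hspb8, a small heat shock protein that works with Bag3, was at 17.2% and 16.9% (0.027, technical SD 0.13). These 3 genes were within 2 technical SD of 0. Hsph1, the Hsp110 exchange factor, was at 39.7% and 41.1% (-0.052), and Dnaja1, a J-domain partner of Hsp70, at 262% and 269% (-0.038). Hspa4l, an Hsp110 relative, was at 120% and 123% (-0.036). Ahsa1, which activates the ATPase of Hsp90, was the member of the group with the largest difference towards the female pool, at 467% and 523% (-0.16, technical SD 0.072). Stip1, the adaptor between Hsp70 and Hsp90, was at 77.4% and 83.9% (-0.12), and Dnajb4, a further J-domain protein, at 13.3% and 14.5% (-0.13, technical SD 0.13). Hsph1 and Dnaja1, which carry a 3-unit element in the windows above, thus lay near 0.

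The constitutive group lay close to 0, with 5 genes higher for males, 11 higher for females and a median of -0.057 over 16. Over all genes and transcripts, 55.0% were lower for males. Hspa8, the abundant Hsc70, was at 8664% and 8655% of the 75th percentile (0.001), and its other 3 probes lay between -0.11 and 0.02. Hsp90ab1, the constitutive Hsp90, was at 1831% and 1821% (0.007), and Hspa4, an Hsp110 protein, at 474% and 462% (0.037). These abundant chaperones were thus within 1 technical SD of equal on the probe used. Among the small heat shock proteins in the group, Hspb2 was at 0.079 and Hspb6 at -0.029, both within 1 technical SD. The J-domain gene Dnajb5 was at 9.62% and 11.2% (-0.22, technical SD 0.13), the largest difference among those measured on both arrays. Dnajc5, the synaptic vesicle chaperone known as cysteine string protein, was at -0.12 on a spot that lay in a patch, whereas a second probe gave -0.036. Dnajb6, Dnajb2 and Dnaja2 lay at -0.080, -0.073 and -0.068, and Fkbp4, a steroid receptor cochaperone, at -0.066. Bag1, an exchange factor of Hsp70, was at 0.060. Hspa12a, a divergent Hsp70, and Hspa2 were at -0.042 and -0.047, the latter on a patch spot.

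The heat shock factors were slightly lower in the male pool, though within 2 technical SD of 0 on the probe that stood for each gene. Hsf1, the factor that drives the inducible genes, was at 53.2% and 58.7% on 1 probe (-0.14) and at 46.9% and 53.6% on the other (-0.19), each with a technical SD of 0.087. Hsf2, a related factor, was at 32.8% and 35.0% (-0.093, technical SD 0.087). After normexp background correction Hsf1 was at -0.074 and Hsf2 at -0.078. The protein activity of these factors was not measured.

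The mitochondrial chaperones differed little. Hspe1, the Hsp10 lid of the mitochondrial chaperonin, was at 846% and 801% over 9 spots (0.079, technical SD 0.024), with 0.050 on a second probe of 10 spots. Hspd1, the Hsp60 chaperonin that shares its promoter with Hspe1, was at 603% and 608% over 10 spots (-0.011, technical SD 0.023), and its other probes at -0.030 and -0.054. Hspa9, the mitochondrial Hsp70, was at -0.056 and Trap1, the mitochondrial Hsp90, at -0.054, each about 1 technical SD from 0. Hspe1 was thus the only gene of the 4 that was higher in the male pool, as it was in all 7 alternatives tried.

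In the endoplasmic reticulum group 10 of 11 genes were lower in the male pool by small amounts, beside 55.0% of all genes and transcripts. The median of the group was -0.060, beside -0.016 over all. After normexp background correction 8 of 11 were lower, with a median of -0.082, beside a median of 0.008 over all genes and transcripts. Hspa5, the reticulum Hsp70 known as BiP, was at 612% and 658% over 9 spots (-0.10, technical SD 0.024). Hspa13, a microsome-associated Hsp70, was at 123% and 137% (-0.15, technical SD 0.072). Only these 2 of the 11 were more than 2 technical SD from 0. Dnajb9 and Dnajb11, which are J-domain partners of BiP, were at -0.13 and -0.10, and Dnajc3, a further partner, at -0.038. The lectin chaperones Canx and Calr, which fold glycoproteins, were at -0.075 and -0.037; the second probe of Canx was at -0.18. Pdia3, a disulfide isomerase that works with them, was at -0.060. Hsp90b1, the reticulum Hsp90, was at -0.048 and Hyou1, a large Hsp70 relative, at -0.048. Pdia4, a disulfide isomerase, was the exception at 0.055, within its technical SD of 0.13. The 5 genes with the stress element in the windows above lay between -0.10 and -0.037, inside the range of the group.

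Over all members, 30 of 42 (71.4%) were lower in the male pool, beside 55.0% of all genes and transcripts, and the median was -0.048. The count was 28 with normexp and 33 with median centring or the mean over probes. Of the 42, 36 had a mean log2 signal above -2, and the share of lower genes was not computed for that range. Of the 42, 24 were within 1 technical SD of 0, 14 were lower by more and 4 were higher by more, the last being Hspa1a, Hspb1, Hspe1 and Bag3.

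**Figure D4:**
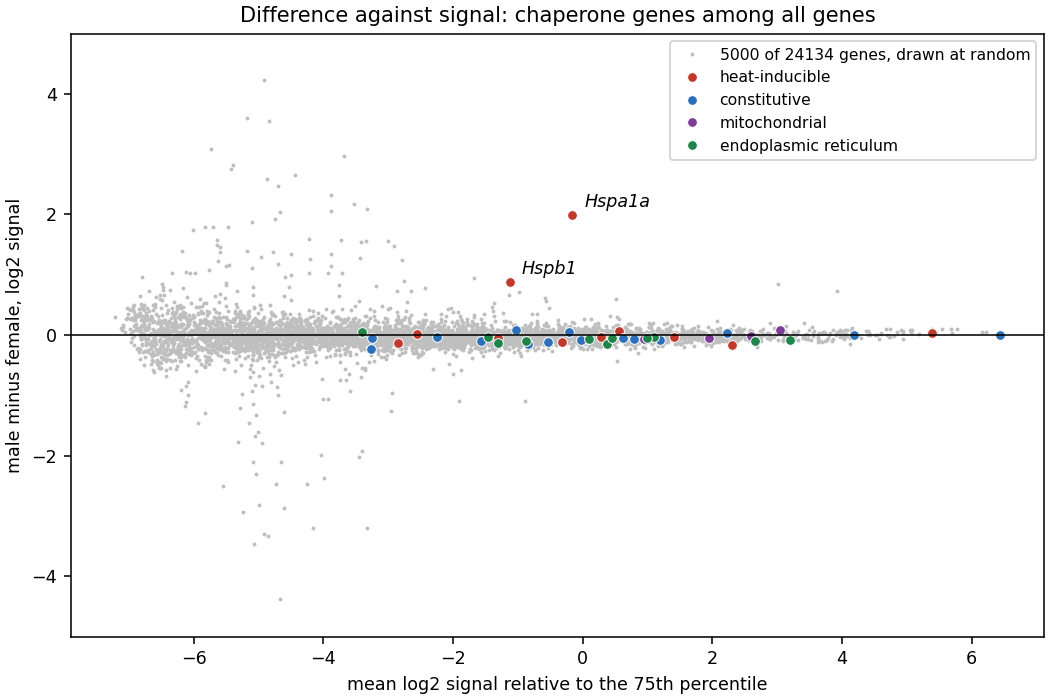
Male minus female log2 signal against the mean log2 signal of each gene relative to the 75th percentile, with the 42 members in colour over a random draw of all genes (grey). Differences of all genes widen at low signal; Hspa1a (1.99) and Hspb1 (0.89) lie where most genes are close to 0.

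Other genes of the protein folding machinery, outside the 46, also lay near equal for the most part. Among 64 such genes 59 were well above background on both arrays, of which 16 were higher for males and 43 for females. Their median was -0.057, beside -0.016 over all genes and transcripts, of which 55.0% were lower for males. The 25% threshold was passed by 5.40% of all genes and transcripts towards the male pool and 3.81% towards the female pool. Among those with a mean log2 signal above -2 the shares were 0.822% and 0.375%. Of the 59 genes, 1 passed it in each direction. Towards the male pool it was Cryab, the small heat shock protein alpha B-crystallin, at 1957% and 1173% (0.74, technical SD 0.072). Towards the female pool it was Fkbp5, a cochaperone of the glucocorticoid receptor that glucocorticoids induce, at 55.6% and 72.5% (-0.38, technical SD 0.087).

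Of 10 further heat-inducible genes 8 were higher for males and 2 for females, with a median of 0.034. With median centring, where the median over all genes and transcripts was -0.047, 5 were higher for males. After Cryab came Hmox1, the haem oxygenase induced by oxidants, at 15.5% and 12.5% (0.31, technical SD 0.13), and Serpinh1, the collagen chaperone Hsp47, at 83.1% and 70.7% over 10 spots (0.23, technical SD 0.027). Both stayed under the threshold. Chordc1, Dnaja4 and Cacybp were between 0.007 and 0.037. Bag2 and Hspbp1, which modulate Hsp70, were at -0.15 and -0.078. The cold-inducible genes Rbm3 and Cirbp, which encode RNA-binding proteins that accumulate on cooling, were at 0.086 and 0.039.

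The cytosolic chaperonin TRiC, which folds actin and tubulin, and its partner prefoldin had 11 of 12 genes lower for males. Their median was -0.088. The count was 10 after normexp correction or the mean over probes, and 12 with median centring. The median over all genes and transcripts was 0.008 with normexp and -0.047 with median centring. Beside this list and the following ones, 55.0% of all genes and transcripts were lower for males, with a median of -0.016. All 8 TRiC subunits were lower, from -0.22 for Tcp1 to -0.061 for Cct3, with Cct5 at -0.15. Cct2, Cct6a and Cct7, with 9 or 10 spots each, were at -0.15, -0.10 and -0.083. Among prefoldin subunits the values lay between -0.055 and 0.020. Of 19 other cochaperones 16 were lower, with a median of -0.053, and apart from Fkbp5 they lay between -0.16 for Dnaja3 and 0.10 for Dnajb12. Of 18 further genes of reticulum folding and the unfolded protein response 14 were lower, with a median of -0.067. Herpud1, a reticulum stress target that serves protein disposal, was at -0.18, Creld2, a secreted stress-induced folding factor, at -0.17, and Xbp1, a transcription factor of the response, at -0.15. Ddit3, which encodes the stress factor CHOP, was at 0.16 on a patch spot.

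Markers of several cell types also differed between the pools, and they are given here because small heat shock proteins and Serpinh1 are made by glia, vessels or fibroblasts. All 8 meningeal fibroblast markers had more signal for males, with a median of 1.2502 and a summed signal of 235% against 94.8% of the 75th percentile. Red blood cell markers were higher for all 4 measured on both arrays (median 0.86, summed signal 179% against 101%). All 8 oligodendrocyte markers (7 by quantile normalization, the mean over probes or without spots in patches) were higher (median 0.16, summed 17302% against 15985%), as were all 8 of astrocytes and tanycytes, 7 with median centring, quantile normalization or the mean over probes (median 0.16, summed 2661% against 2421%). Endothelial markers were higher for 7 of 8, 6 with median centring (median 0.23, summed 514% against 445%), mural cell markers for 6 of 8, 7 with normexp and 5 with median centring (median 0.10, 192% against 189%) and microglial markers for 7 of 8 (median 0.085, 882% against 827%). Of the choroid plexus and ependyma list all 5 measured on both arrays were higher, 4 with median centring (median 0.25, 147% against 129%). Neuronal markers were lower for 9 of 11 (median -0.057, summed 3516% against 3756%). The summed signals of these lists weigh bright probes most and do not measure the amount of a cell type. Kcnj13 and Kl of the choroid plexus and Slc4a1 of red blood cells were well above background on 1 array alone. Their bounds were 1.93 or more for Kcnj13, -0.19 or lower for Kl and 0.67 or more for Slc4a1. Immediate early genes, a sign of recent cell stimulation, were higher for all 11, 10 with median centring or quantile normalization (median 0.27, summed 227% against 194%). Of these 11, 6 lay more than 2 technical SD from 0, and the lowest, Egr2, was at 0.005. The 9 hypothalamic markers went both ways, with 4 higher for males, 5 lower and a median of -0.016. Of these 9, 1 passed 25% towards the male pool and 2 towards the female pool, beside 5.40% and 3.81% of all genes and transcripts. Hspa1a, at 1.99, lay above every gene of the marker lists measured on both arrays. The fibroblast gene Ogn was next among them, at 1.82 on a patch spot. Kcnj13, with a bound of 1.93 or more, cannot be ranked against Hspa1a. Hspb1 (0.89) and Cryab (0.74) lay within the range of the fibroblast markers (0.50 to 1.82) and below the microglial marker Cd74 (1.58). Both were above the highest marker of oligodendrocytes (0.37), of astrocytes and tanycytes (0.46) and of endothelium (0.70). Cryab lay within the range of the red blood cell markers measured on both arrays (0.48 to 0.88), and Hspb1 lay just above that range. The highest immediate early gene, Atf3 (0.87), lay between Cryab and Hspb1. The part of cell composition, or of handling before death, in the differences of Hspa1a, Hspb1 and Cryab was not tested. In tissue RNA, more cells of a type and more RNA per cell cannot be told apart.

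**Figure D5:**
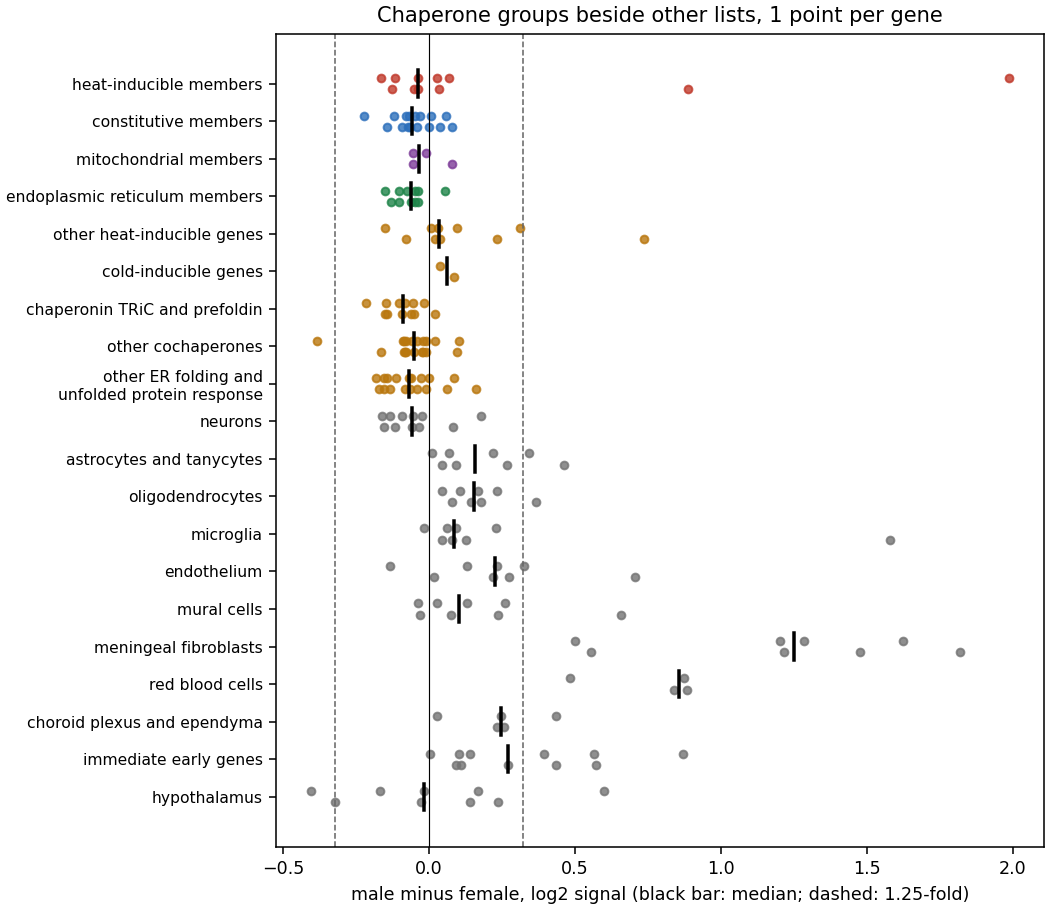
Male minus female log2 signal of each gene by list, with the member groups in colour, other chaperone lists in ochre and marker lists in grey; black bars are medians and dashed lines mark a difference of 25%. Chaperone lists centre near 0 with Hspa1a, Hspb1 and Cryab apart to the right and Fkbp5 (-0.38) to the left, whereas meningeal fibroblast markers range from 0.50 to 1.82.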

How the data were processed

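Each pool was measured on 1 Agilent single-colour array. Per the file headers, the deposited array files hold the scanner software's background-subtracted spot intensity, unscaled between arrays (Feature Extraction 11.5.1.1, protocol GE1_1105_Oct12, design build rn4; the submitters' processing notes name version 9.1). The deposited series matrix holds intensity values that equalled 100 times that signal over the array's 75th percentile, on a linear scale with column medians of 28.0 and 27.8.

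The 664 spots that the software marked as outliers on 1 or both arrays were removed; none was saturated. Signals were divided by their array's 75th percentile, taken as log2 and averaged per probe. Symbols came from RefSeq accessions (GRCr8 gene table; 21109 of 45598 probes, 46.3%). The probe with the highest mean signal stood for a gene, and all probes are given for Hspa1 and Hspb1 genes. A probe passed as well above background if over 50% of its spots did. A spot lay in a patch when at least 2 of its 18 nearest measured spots of other probes differed at least 2-fold in 1 direction (12.9% of measured spots). With 1 array per sex no test was run. Members, lists and the 25% threshold were chosen with earlier results of these data known. All members were to be named, and from other lists the genes past it or else the 2 with the largest difference; further genes were named after their values were seen. The array files lack the mean spot signal, so normexp (limma 3.58.1, offset 50) used medians. The computation, in Python 3.11.15, was checked on simulated arrays. The value of 1 further gene is not reported here.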

Additional observations from a re-analysis of the deposited data

How the results depend on the processing

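The difference of Hspa1a lay between 1.92 (normexp background correction) and 2.14 (mean over both probes), and that of Hspb1 between 0.82 (normexp) and 0.89, over 7 alternatives each: normexp, median centring, quantile normalization, the mean over probes, no spots in patches, dim probes included and the series matrix values. Cryab lay between 0.71 and 0.80 and Fkbp5 between -0.41 and -0.35 in these settings, which were applied to both after the data were seen. The count of members past 25% towards the male pool stayed at 2 in these 7 and at a threshold of 1.5-fold, and was 1 at 2-fold. The count past it towards the female pool was 0, except with dim probes included, where it was 1 (Hspa1l). Of 42 members, 37 stayed within 1 technical SD of their value in every alternative that could measure them. Hspa1a and Hspb1, the members past 25%, did not change sign. Calr, Hsp90aa1, Hsp90ab1, Hspa8, Hspb6, Hspb8, Hsph1 and Hyou1, all close to 0, changed sign in at least 1 alternative. Counts of direction include these genes and so depend in part on the processing. The median over all members ranged from -0.079 (median centring) to -0.030 (normexp). The median over all genes and transcripts moved in the same direction, at -0.047 and 0.008 in these settings. That of the reticulum group ranged from -0.091 to -0.053 and that of the heat-inducible group from -0.067 to 0.030. No paired analysis was possible because each sex has 1 pool. Differences of dim probes are the least certain: the technical SD of 1 spot was 0.25 below a log2 signal of -4 and 0.072 above 0.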

Other observations

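Among the 4977 genes and transcripts whose mean signal was at or above that of Hspa1a, none was higher in the male pool by as much. A 2-fold difference was reached by 4 of them towards the male pool, Hspa1a included, and by 0 towards the female pool. Over the 9860 with a mean log2 signal above -2, Hspa1a ranked number 2 and Hspb1 number 15 by difference towards the male pool. Number 1 was Cga, a pituitary hormone subunit gene, at 2.03 on a patch spot. Ptgds, the prostaglandin D synthase made by meninges and choroid plexus, followed Hspa1a at 1.52 over 10 spots. These genes were chosen after their values were seen.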
